A study of Rattus norvegicus with 6 samples.

Results

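Cyp1a1 and the genes of the aryl hydrocarbon receptor were examined in rat kidney: the receptor gene Ahr, its partner Arnt, its repressor Ahrr, and the target genes Cyp1a1, Cyp1a2, Cyp1b1, Tiparp and Aldh3a1. These are 8 of the 14217 genes with a probe set. All probe sets that the array annotation assigns to exactly 1 of these symbols were taken, which gave 10 of the 31042 probe sets tested, with 2 each for Ahr and Tiparp and 1 for each of the other 6 genes. Cyp1a1 was selected on its measured fall in congenic kidneys, so its own values are given as a description. The other 7 genes were taken for their place in the pathway, to see whether that fall was shared, and with earlier results of these data known.

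Whole-kidney RNA of 6 male rats was hybridised to Affymetrix Rat Expression Array 230 2.0 chips, with 1 chip per rat. The animals were 3 congenic S.LEW(10)x12x2x3x5 rats, which carry a Lewis (LEW) segment of chromosome 10 on the Dahl salt-sensitive (S) background, and 3 S rats, the inbred strain that develops hypertension on a high-salt diet. In both groups weaning was at 30 days, the food held 0.3% salt, and kidneys were taken at 53 days of age. The labels name no compound given to activate the receptor. Every cage housed 1 congenic and 1 S rat, and the labels do not say which rats shared one. The strain difference covers every gene of the transferred segment. Aldh3a1 is the member that lies on chromosome 10, and the limits of the segment were not placed here.

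The aryl hydrocarbon receptor is a transcription factor that waits in the cytoplasm with the chaperone Hsp90 and its helpers. When a ligand binds, such as a dioxin, a polycyclic aromatic hydrocarbon or a metabolite of tryptophan, the receptor moves to the nucleus, pairs with Arnt and binds the xenobiotic response element, whose core is GCGTG. Its targets include enzymes that oxidise the ligand, with Cyp1a1 the most widely used readout, and genes that switch the pathway off again, namely Ahrr, which competes for Arnt, and Tiparp, which ADP-ribosylates the receptor. In the kidney the receptor is known as a sensor of pollutants and of retained indoles such as indoxyl sulfate, and Cyp1a1 is inducible there.

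The core motif was searched for in the members' promoters, since it is the sequence through which the receptor acts. The RefSeq promoter table (GRCr8, 250 bases before to 50 bases after the start of each gene) matched 6 of the 8 members by symbol: Cyp1a2, Cyp1b1, Ahr, Ahrr, Arnt and Tiparp. GCGTG, searched on both strands, was found in 4 of these 6 windows, and in 29.7% of the 33469 promoters of the table. The letters GCGTG are also one form of the core bound by hypoxia-inducible factors, which pair with Arnt too. The longer form TNGCGTG was found in 2 of the 6 windows, those of Cyp1b1 and Ahrr, and in 4.89% of all promoters. The stretches that hold the matches are given on the strand of the gene, 5′ to 3′, with GCGTG or its reverse complement CACGC in capitals. They lie at chr6:21094472-21094561 for Cyp1b1, chr1:30822065-30822178 for Ahrr, chr2:152063621-152063649 for Tiparp and chr2:185686649-185686677 for Arnt, all on the plus strand.
Cyp1b1: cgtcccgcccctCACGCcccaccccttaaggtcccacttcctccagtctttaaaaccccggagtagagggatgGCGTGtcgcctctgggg
Ahrr: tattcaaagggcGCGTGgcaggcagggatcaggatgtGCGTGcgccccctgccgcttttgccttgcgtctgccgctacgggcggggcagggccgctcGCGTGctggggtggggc
Tiparp: ctctgtcaggcgCACGCgcacgggaggcg
Arnt: ccatggtatgggGCGTGtcttctccccca
Ahrr held 3 matches, at 142, 117 and 57 bases before its start, Cyp1b1 held 2, at 81 and 20 bases, Tiparp 1 at 136 bases and Arnt 1 at 42 bases. The windows of Ahr and Cyp1a2 held no match. A match is a stretch of letters and does not show that the receptor binds there.

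The arrays were comparable in overall level, with medians from 7.47 to 7.51 on the log2 scale, and precision rests on 3 rats a group. The kidney markers Umod, Aqp2, Slc12a1 and Lrp2 lay between 12.6 and 14.8 in all 6 rats. With limma, 1862 of 31042 probe sets (6.00%) passed an adjusted p of 0.05, a call that rested on single rats: 0 passed without S rat 3 or without congenic rat 2 (6968 and 5575 at an unadjusted p under 0.05), 8 without congenic rat 3, 350 without congenic rat 1, 968 without S rat 2 and 4752 without S rat 1. Every count of called genes below is therefore 0 without S rat 3 or without congenic rat 2. S rat 2 stood apart, with the distal tubule markers Calb1 at 9.38 and Slc12a3 at 9.50, against 12.7 or above and 11.7 or above in the other 5 rats. A measure of RNA quality did not overlap between the groups either. The signal at the 3′ end minus that at the 5′ end of the beta-actin and Gapdh control transcripts, averaged over both and wider in poorer RNA, was 1.26, 1.01 and 1.08 in the 3 congenic rats and 1.56, 2.10 and 1.70 in the 3 S rats. The difference was -0.67, with a two-sided p of 0.1 in an exact permutation test, which cannot go lower with 3 rats a group. The part of these differences in the results below was not tested, and each member is also given with the gap as a term in the model.

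Across the pathway, Cyp1a1 was about 2.03-fold lower in the congenic kidney, and none of the other 9 probe sets was called lower. One probe set of Ahr was called higher, by 1.37-fold. Cyp1a2, Cyp1b1, Ahrr, Arnt, Tiparp and Aldh3a1 did not pass. In all, 2 of 10 member probe sets were called, beside 6.00% of all probe sets, and 1 of them was lower, beside 2.53%. Since Cyp1a1 was chosen in this same contrast, nothing is read from that count, which was 3 without S rat 1 and 0 without any one of the other 5 rats. Groups did not overlap at 3 of the 10, beside 31.2% of all probe sets, and 4 of the 10 had an unadjusted p under 0.05, beside 25.4%. The median log2 change was 0.05 over the 9 probe sets without Cyp1a1 and -0.02 over all probe sets.

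**Figure D1:**
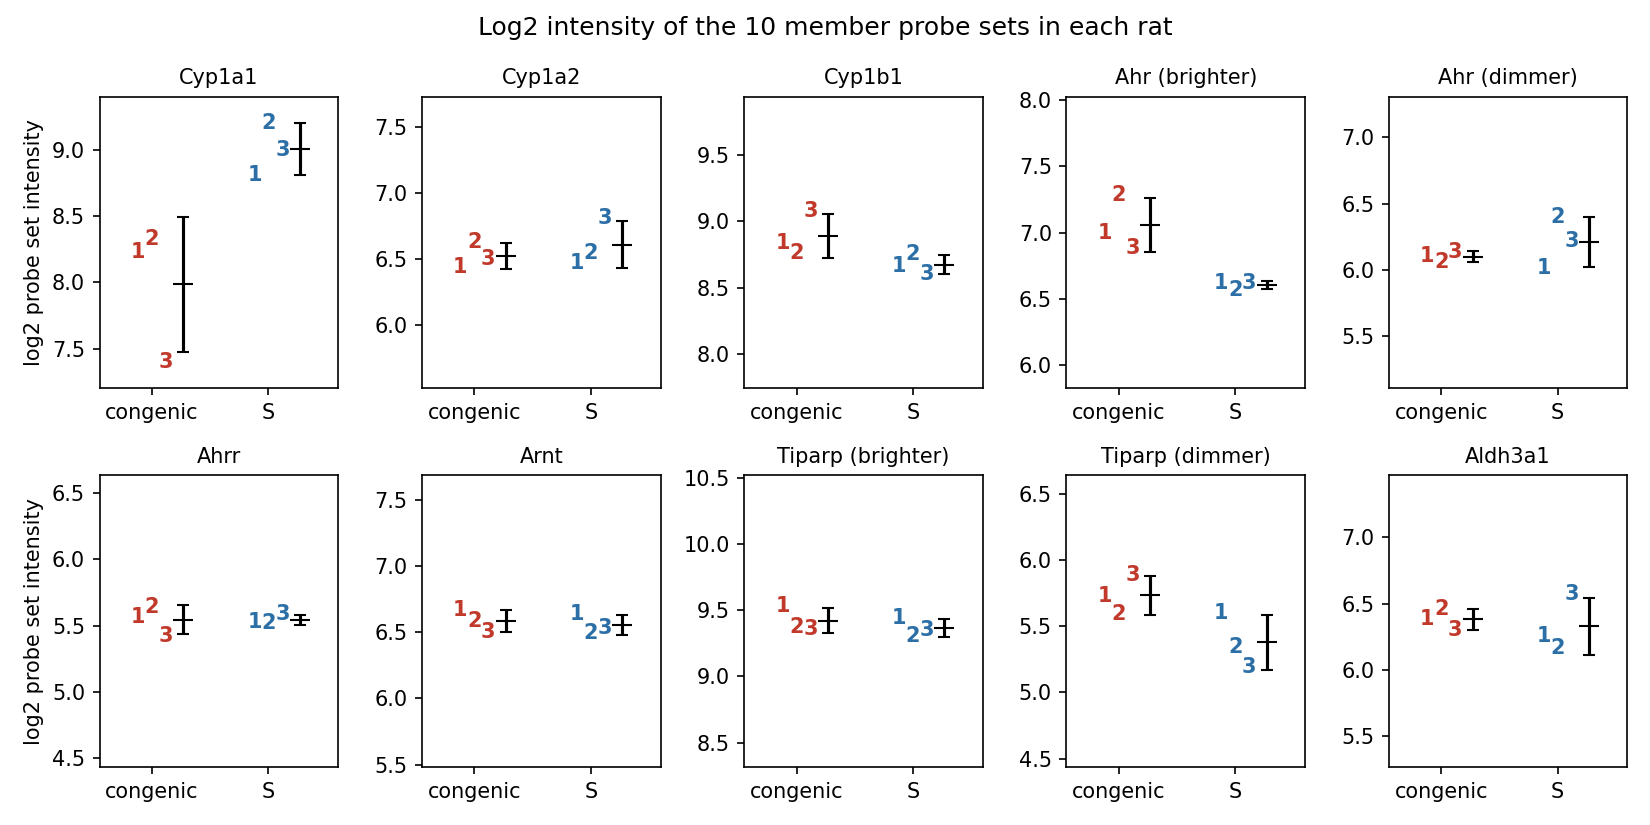
Log2 intensity (vertical axis) of each member probe set in the 3 congenic rats (red, left) and the 3 S rats (blue, right); digits are rat numbers, black bars are the mean and SD, and every panel spans the same log2 range. Cyp1a1 lies at or below 8.33 in congenic rats and at or above 8.81 in S rats, while the other probe sets lie within narrower bands.

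The readout gene of the pathway, Cyp1a1, encodes the monooxygenase that oxidises polycyclic aromatic hydrocarbons and the receptor's own tryptophan-derived ligands. Its probe set stood at 8.23, 8.33 and 7.40 in congenic rats 1, 2 and 3, and at 8.81, 9.20 and 9.00 in S rats 1, 2 and 3. The groups did not overlap, with a gap of 0.49 between the highest congenic and the lowest S rat. Congenic rat 3 was the lowest by far, and the congenic values spread over 0.92 against 0.39 in S. The means were 7.99 ± 0.51 in congenic and 9.01 ± 0.19 in S rats (SD, n = 3 each), a log2 change of -1.02 with a 95% interval of -1.53 to -0.51, which is 50.7% less signal. Of all 31042 probe sets, 7 including this one had a change as low or lower, and 4 of these were called. In whole-kidney RNA fewer cells of a type and less RNA per cell cannot be told apart.

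The size of this value changed with single rats and with the RNA quality term. It was -0.73 without congenic rat 3 and -0.92 without S rat 2, and ran from -1.02 to -1.19 without any of the other 4 rats. With the term it was -0.58 ± 0.46 (SE), with an interval from -1.65 to 0.49. The term separates the groups, so it also widens the interval.

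**Figure D2:**
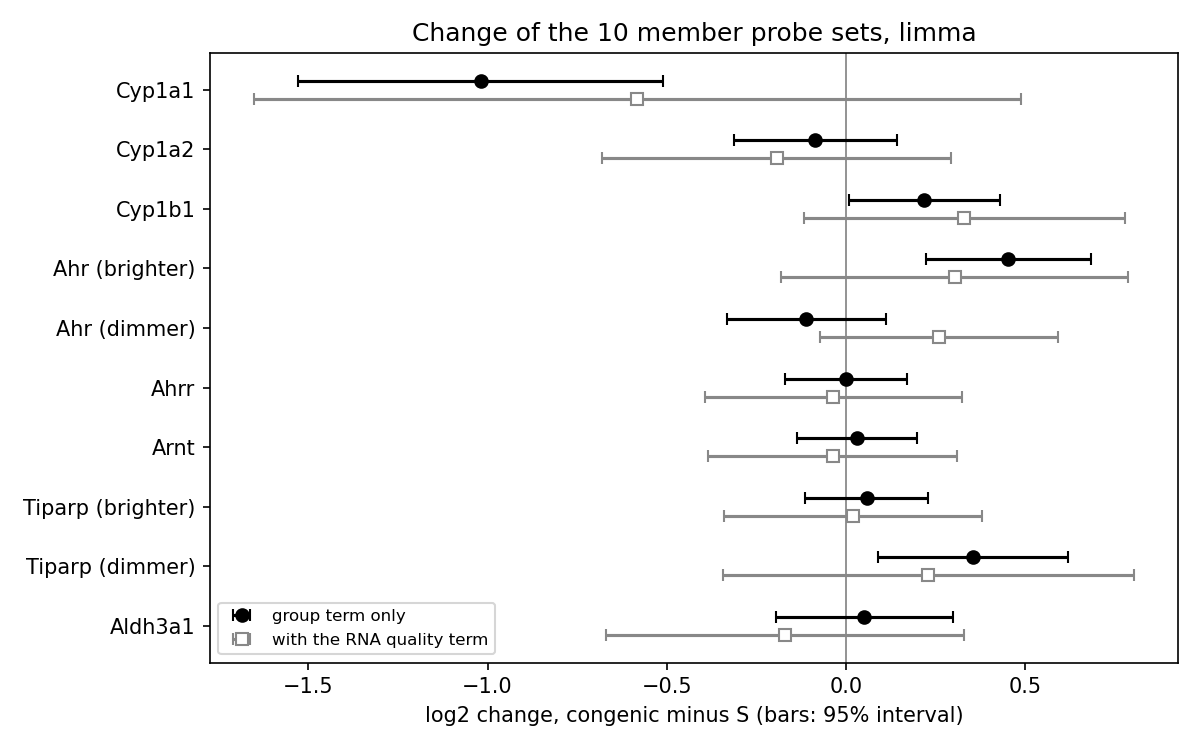
Log2 change, congenic minus S (horizontal axis), of each member probe set with its 95% interval from limma, without (black) and with (grey) the RNA quality term. The Cyp1a1 interval, of the gene chosen for its fall, is a description (-1.53 to -0.51). Both Ahr points are above 0 with the term (0.30 and 0.26), with grey intervals that include 0.

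Ahr, the receptor itself, is represented by a brighter and a dimmer probe set that disagreed. The brighter one stood at 7.00, 7.28 and 6.88 in the congenic rats and at 6.62, 6.57 and 6.62 in the S rats. All congenic rats were above all S rats, and the S rats spanned 0.05. It rose by 0.45 ± 0.10 (SE), which is 1.37-fold with a 95% interval of 1.17 to 1.61 (limma, adjusted p = 0.0412). The call held in 6 of 14 alternatives and was lost, among others, without any one of the 3 congenic rats, without S rat 2 or S rat 3, without limma's moderation, and once the RNA quality term was added (0.30 ± 0.21 SE, adjusted p = 0.85), and the value ran from 0.30 to 0.54 over the 14.

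The dimmer Ahr probe set stood at 6.10, 6.06 and 6.14 in congenic and at 6.02, 6.40 and 6.22 in S rats. All 3 congenic values lay within the S range, with a log2 change of -0.11 ± 0.10 (SE, adjusted p = 0.53). It turned to 0.26 once RNA quality was a term. The probe sets therefore do not give one answer for the receptor. Both lie in the lower part of the array, at percentiles 39.7 and 28.9 of mean intensity, where differences between arrays are known to be compressed. Which transcripts each probe set reads was not analysed here.

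**Figure D3:**
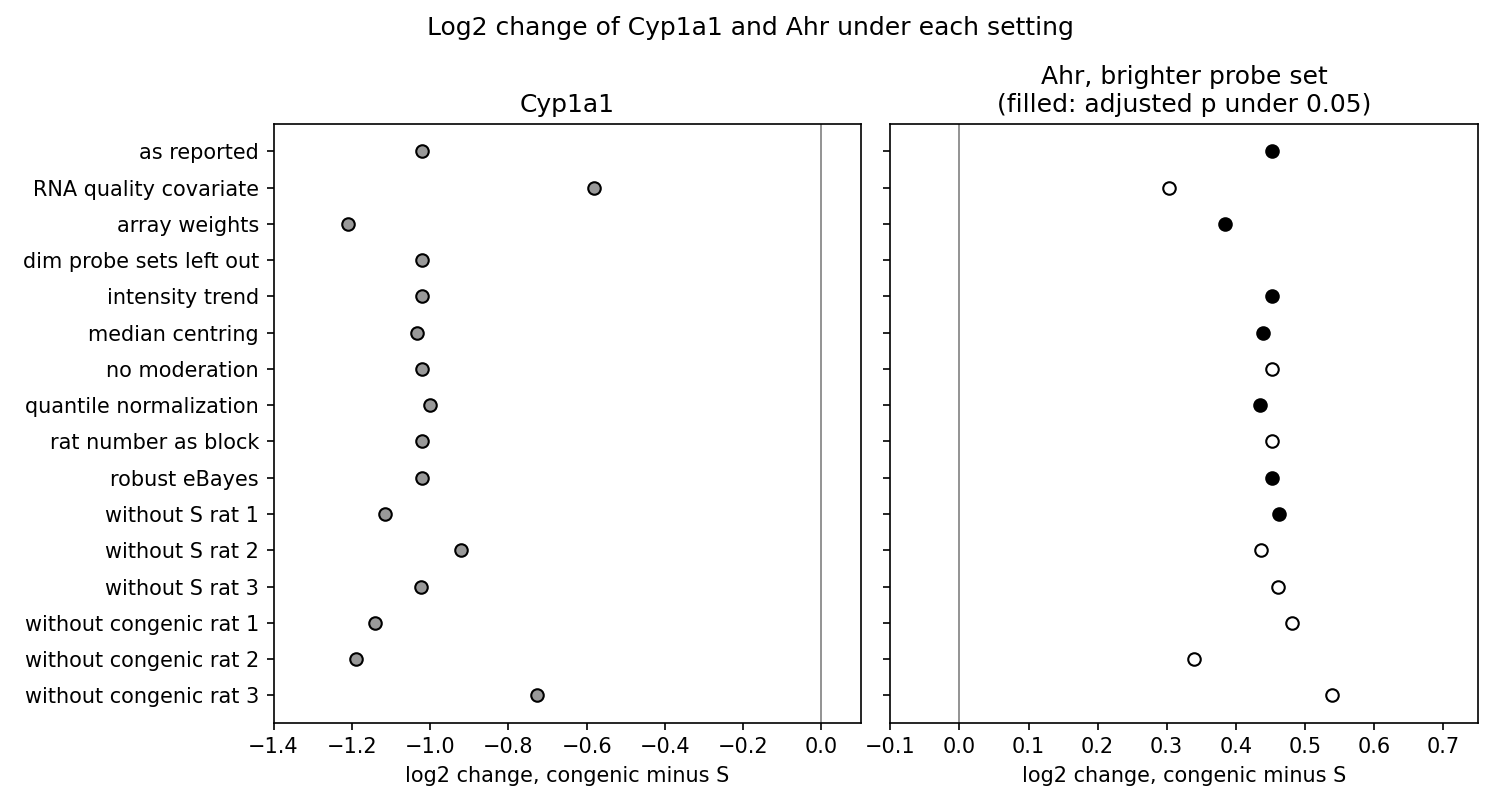
Log2 change, congenic minus S (horizontal axis), of Cyp1a1 (left) and the brighter Ahr probe set (right) under each setting (vertical axis). Cyp1a1 stays between -1.21 and -0.58 and Ahr between 0.30 and 0.54; filled points of the Ahr panel passed an adjusted p of 0.05, and Ahr has no point where dim probe sets were left out.

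Arnt, the partner with which the receptor binds DNA, stood at 6.67, 6.59 and 6.50 in congenic and at 6.64, 6.50 and 6.53 in S rats. The groups overlapped almost completely. Its log2 change was 0.03 with a 95% interval of -0.14 to 0.20 (adjusted p = 0.85). Ahrr, the repressor, stood at 5.57, 5.64 and 5.42 in congenic rats and 5.52, 5.52 and 5.59 in S rats. The S values lay inside the congenic range, and the means were 5.54 in both groups. The 95% interval of its log2 change ran from -0.17 to 0.17. The level was below the lower quartile of every array (5.88 to 5.96), so a change of a weakly expressed Ahrr may not have been detectable, and no detection call was used.

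Cyp1a2, the close relative of Cyp1a1 and best known from the liver, is its immediate neighbour on chromosome 8. It stood at 6.44, 6.63 and 6.50 in congenic and at 6.47, 6.54 and 6.81 in S rats. S rat 3 was highest and the other 5 rats were within 0.19 of each other. The log2 change was -0.09 with a 95% interval of -0.31 to 0.14 (adjusted p = 0.66).

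Cyp1b1, the third enzyme of the family, oxidises oestrogens and aromatic hydrocarbons in tissues outside the liver. It stood at 8.83, 8.76 and 9.08 in congenic and at 8.66, 8.75 and 8.61 in S rats. Every congenic rat was above every S rat, but the nearest values differed by 0.01 and congenic rat 3 was highest. The mean was 8.89 ± 0.17 in congenic and 8.67 ± 0.07 in S rats (SD, n = 3 each). The change of 0.22 ± 0.09 (SE) had an unadjusted p of 0.0442 and did not pass (adjusted p = 0.18). With array weights it was 0.32 and passed (adjusted p = 0.0338), and without congenic rat 3 it was 0.13. Congenic rat 3 held both the lowest Cyp1a1 and the highest Cyp1b1 of all 6 rats. Both genes are textbook targets of the receptor, but this is a single rat, picked with its values in view, and was not tested.

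Tiparp, the ADP-ribosyltransferase that marks the receptor for removal, was measured by a brighter probe set at percentile 76.9 of mean intensity and a dimmer one at percentile 19.0. The brighter one stood at 9.53, 9.37 and 9.36 in congenic and at 9.44, 9.30 and 9.35 in S rats. The groups overlapped and the change was 0.06, with an interval of -0.11 to 0.23 (adjusted p = 0.70). The dimmer probe set stood at 5.73, 5.59 and 5.88 in congenic and at 5.60, 5.34 and 5.19 in S rats. Congenic rat 2 and S rat 1 overlapped by 0.01. The change of 0.35 ± 0.12 (SE) did not pass (limma, adjusted p = 0.10). It passed in 2 of 14 alternatives, without S rat 1 (0.47, adjusted p = 0.0176) and with array weights (0.51, adjusted p = 0.00934). Those 2 settings called 4752 and 6077 of all probe sets. With the RNA quality term the change was 0.23 (adjusted p = 0.93).

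Aldh3a1, an aldehyde dehydrogenase that dioxin induces strongly in rat liver, stood at 6.38, 6.46 and 6.30 in congenic and at 6.26, 6.16 and 6.57 in S rats. S rats held both the lowest and the highest value. The change was 0.05 with an interval of -0.20 to 0.30 (adjusted p = 0.82). The members' changes are differences of log2 array intensity, which are known to be compressed at dim probe sets. Below percentile 40 of mean intensity lay 7 of the 9 probe sets other than Cyp1a1. Whether the change of Cyp1a1 differed from that of another member was not tested, because Cyp1a1 was chosen for its change.

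The genes on either side of Cyp1a1 did not pass. Taking the 3 nearest genes with a probe set on each side, the log2 changes were -0.09 for Cyp1a2, -0.03 for Csk, a kinase that restrains Src, and 0.01 for Cplx3, a synaptic protein, on the one side. On the other side they were -0.15 for Edc3, an mRNA decapping factor, -0.15 for Clk3, a splicing kinase, and 0.0024 for Arid3b, a DNA-binding protein. The smallest adjusted p among the 6 was 0.29, for Clk3.

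The genes whose profile over the 6 rats was most like that of Cyp1a1, of 2638 probe sets of sufficient level and range, were Mettl26 (Pearson r = 0.982), Arrdc3 (0.981), Sdr39u1 (0.980), Gpd2 (0.974) and Fam43a (0.972). Each was lowest in congenic rat 3 and lower in every congenic rat than in any S rat. Gpd2, the mitochondrial glycerol-3-phosphate dehydrogenase, stood at 8.11, 8.05 and 7.50 in congenic and at 8.52, 8.70 and 8.37 in S rats. Their log2 changes were -0.33, -0.41, -0.44, -0.65 and -0.36 in the order given. These r values describe 6 arrays that share a group difference and were picked as the highest, so they carry no test.

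Beyond the members, most measured genes of a list of known receptor targets did not pass. Of 16 measured, Nqo1 and Gsta3 fell, Xdh rose and 13 did not pass. In the same limma fit 9 of the 16, each by its brightest probe set, had an unadjusted p under 0.05, in both directions. Over all probe sets, dim ones included, the share was 25.4%. With dim probe sets left out, 6357 of 18625 had such a p. The same holds beside the counts of unadjusted p in the lists that follow. The median log2 change of the target list was 0.04 against -0.03 over all 14217 genes. Taking each gene by its brightest probe set, 2.67% of all genes were called lower and 2.12% higher. Nqo1, a quinone reductase, stood at 8.85, 8.85 and 8.93 in congenic and at 9.32, 9.41 and 9.46 in S rats. All 3 congenic rats were lower, with a change of -0.52 ± 0.07 (SE, adjusted p = 0.0174) that was -0.47 once RNA quality was a term (adjusted p = 0.52).

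Gsta3, a glutathione transferase, stood at 8.57, 8.41 and 8.37 in congenic and at 8.99, 9.30 and 9.17 in S rats, with a change of -0.71 ± 0.10 (SE, adjusted p = 0.0179). No congenic rat reached the S range, and with the RNA quality term the change was -0.33. Alpha-class transferases have closely related copies, whose share of this probe set's signal was not separated here. Nqo1 and Gsta3 are also known targets of NRF2, the oxidative stress factor. Xdh, which makes uric acid, went the other way, at 11.62, 11.38 and 11.52 in congenic against 11.09, 10.59 and 10.79 in S rats (0.68 ± 0.13 SE, adjusted p = 0.0282, and 0.33 with the term). Without S rat 1 this list had 5 called genes, 2 higher and 3 lower, and it had 0 without congenic rat 3.

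None of 15 measured chaperones and coregulators of the receptor passed (limma, 6 at an unadjusted p under 0.05), and their median change was -0.08. Among the brightest probe sets, the smallest p values were those of the coactivator gene Ncoa1 (-0.26, adjusted p = 0.0955), the acetyltransferase gene Ep300 (-0.23, adjusted p = 0.10) and Arnt2, a second Arnt (-0.20, adjusted p = 0.14). At each of these 3 genes the groups did not overlap, beside 31.2% of all probe sets. The 3 were named for their small p values, so nothing is read from this. With the RNA quality term Ncoa1 was at 0.05, Ep300 at -0.03 and Arnt2 at -0.16. Some dimmer probe sets had smaller p values and did not pass either. Those of Smarca4 (0.50, adjusted p = 0.0535), Cul4b (0.50, adjusted p = 0.0542), Hsp90ab1 (0.77, adjusted p = 0.0689) and Src (0.28, adjusted p = 0.0921) were higher. That of Ncoa1 was lower (-0.30, adjusted p = 0.0655). Without S rat 1 the list had 2 called genes, both lower, and with array weights 4.

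**Figure D4:**
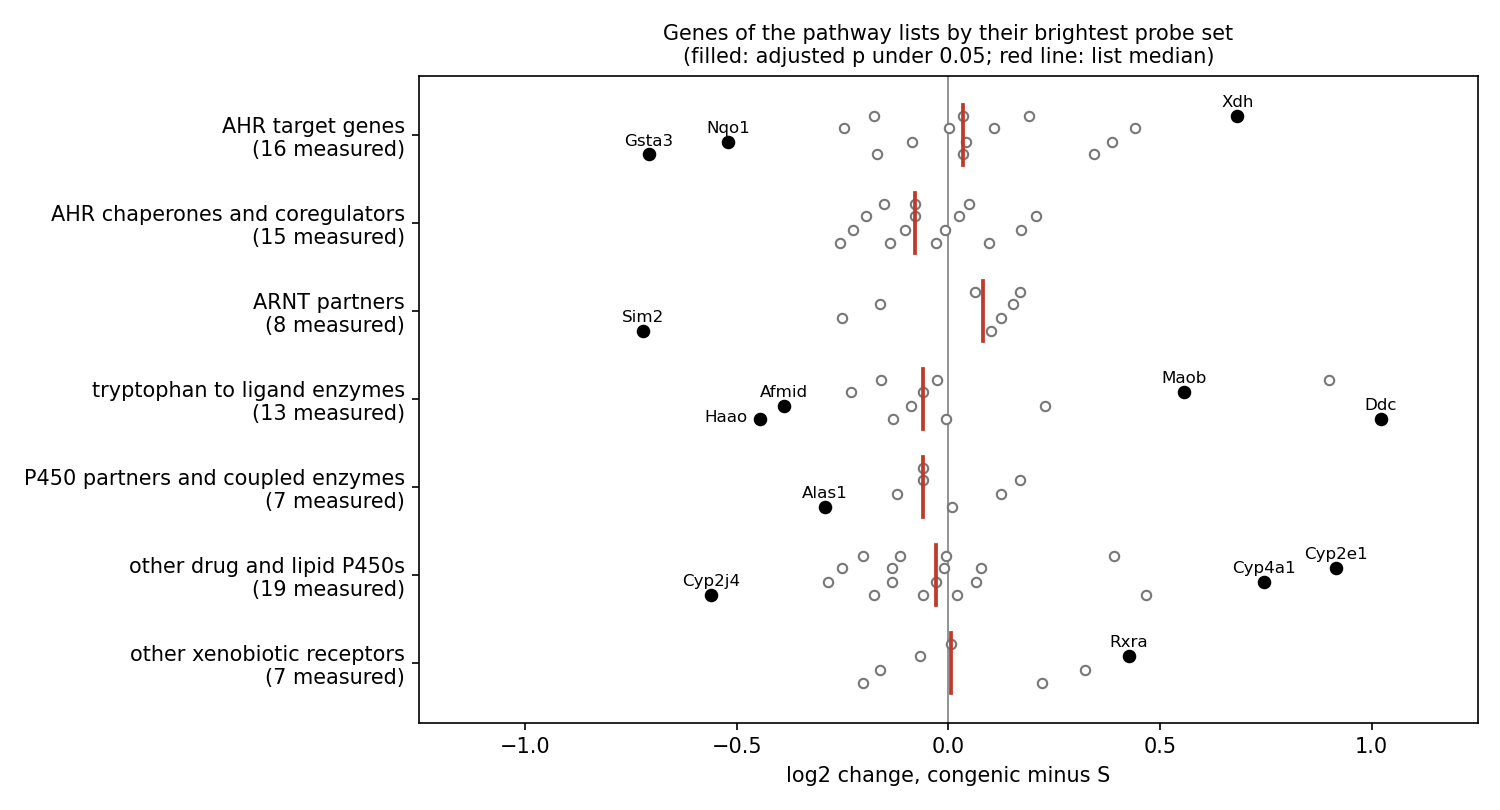
Log2 change, congenic minus S (horizontal axis), of every measured gene of 7 lists around the receptor (rows), each by its brightest probe set. Of 85 genes 13 passed (filled, named), 6 higher and 7 lower, beside 2.12% higher and 2.67% lower among all genes, and the list medians (red) lie between -0.08 and 0.08. The lists were chosen with earlier results of these data known, so nothing is read from this count, which was 0 with the RNA quality term.

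The next 8 genes have proteins that pair with Arnt or its close relatives, or are such a relative (Bmal1). Of the 8, 2 had an unadjusted p under 0.05 (limma), and the median change was 0.08. Sim2 fell and 7 did not pass at their brightest probe set. Epas1, the hypoxia-inducible factor HIF-2 alpha, was at 0.10 there (adjusted p = 0.38), while a dimmer probe set of it rose by 0.66 (adjusted p = 0.0413). Sim2, a transcription factor of the same bHLH-PAS family as the receptor, stood at 9.85, 9.75 and 9.72 in congenic and at 10.17, 10.86 and 10.45 in S rats. Its change of -0.72 ± 0.15 (SE, adjusted p = 0.0369) was 0.0080 with the RNA quality term. Without S rat 1 a second gene of the list was called lower, and without congenic rat 1 or congenic rat 3 none was.

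The next list holds enzymes that turn tryptophan into ligands of the receptor, or remove them. Of 13 measured, Maob and Ddc rose, Haao and Afmid fell and 9 did not pass. The median was -0.06, and 6 of the 13 had an unadjusted p under 0.05 (limma). Haao, which opens the ring of hydroxyanthranilate in the kynurenine pathway, stood at 12.41, 12.27 and 12.31 in congenic and at 12.71, 12.85 and 12.77 in S rats. It was lower in all congenic rats (-0.45 ± 0.07 SE, adjusted p = 0.0220), and -0.24 with the RNA quality term. Afmid, which makes kynurenine, changed by -0.39 ± 0.08 (SE, adjusted p = 0.0348), by -0.35 at a second probe set (adjusted p = 0.0377) and by -0.05 at another, which did not pass (adjusted p = 0.80).

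Ddc, which makes tryptamine, serotonin and dopamine, was at 9.94, 9.38 and 9.51 in congenic and at 9.10, 8.15 and 8.52 in S rats, with a change of 1.02 ± 0.23 (SE, adjusted p = 0.0421) and of 0.42 with the term. A dimmer Ddc probe set was at 0.15 and did not pass (adjusted p = 0.36). Maob, a monoamine oxidase, was at 7.32, 7.11 and 7.14 in congenic and at 6.63, 6.78 and 6.50 in S rats, with a change of 0.56 ± 0.09 (SE, adjusted p = 0.0230) that was 0.87 with the term. Congenic and S rats did not overlap at any of these 4 genes, beside 31.2% of all probe sets. The 4 were named because they were called, so nothing is read from this. Without S rat 2 the list had 2 called genes, without congenic rat 1 it had 1 and without congenic rat 3 it had 0.

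Genes that serve the P450 enzymes were mostly below the threshold. Of 7 measured, Alas1 fell and 6 did not pass. The median was -0.06, and 1 of the 7 had an unadjusted p under 0.05 (limma). Alas1, the first enzyme of haem synthesis, was at 10.36, 10.39 and 10.50 in congenic and at 10.72, 10.76 and 10.64 in S rats, with a change of -0.29 ± 0.07 (SE, adjusted p = 0.0469) and of -0.25 with the RNA quality term. Por, the reductase that passes electrons to microsomal P450 enzymes, was at 0.01 at its brightest probe set (adjusted p = 0.95), while a dimmer one rose by 0.72 (adjusted p = 0.0333). The Alas1 call held in 6 of 15 alternatives and was lost, among others, with quantile normalization and without S rat 2, congenic rat 1 or congenic rat 3.

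Of 19 other P450 genes, Cyp2e1 and Cyp4a1 rose, Cyp2j4 fell and 16 did not pass. The median was -0.03, and 8 of the 19 had an unadjusted p under 0.05 (limma). Cyp2e1, which oxidises ethanol and other small molecules, was at 11.29, 10.79 and 10.98 in congenic and at 10.41, 9.78 and 10.13 in S rats (0.91 ± 0.17 SE, adjusted p = 0.0295). Cyp4a1, a fatty acid hydroxylase induced by PPAR-alpha, was at 11.04, 10.77 and 10.69 in congenic and at 10.28, 9.97 and 10.01 in S rats (0.75 ± 0.11 SE, adjusted p = 0.0210). Cyp2j4, an arachidonate epoxygenase, was at 8.31, 8.21 and 8.25 in congenic and at 8.68, 9.09 and 8.67 in S rats (-0.56 ± 0.11 SE, adjusted p = 0.0340). Once RNA quality was a term, Cyp2e1 was at 0.54, Cyp4a1 at 0.65 and Cyp2j4 at -0.06. Sequences shared among Cyp4a genes were not separated here. Without S rat 1 the list had 6 called genes, 3 in each direction, without congenic rat 1 it had 1 and without congenic rat 3 it had 0.

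Of 7 other receptors that control drug-metabolising genes, 5 had an unadjusted p under 0.05 (limma), and the median change was 0.01. Rxra, the partner of many nuclear receptors, rose and 6 did not pass at their brightest probe set. Hnf4a, a transcription factor of the proximal tubule, was at -0.16 there (adjusted p = 0.18), while one dimmer probe set of it rose by 0.58 (adjusted p = 0.0480) and another was at 0.22 (adjusted p = 0.11). Rxra was at 7.92, 8.06 and 7.98 in congenic and at 7.55, 7.37 and 7.76 in S rats. The change was 0.43 ± 0.10 (SE, adjusted p = 0.0469) and 0.10 with the RNA quality term. The call held in 6 of 15 alternatives and was lost, among others, with quantile normalization and without S rat 2, congenic rat 1 or congenic rat 3. Without S rat 1 the list had 2 called genes.

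Markers of several cell types also differed between the groups, and their part in the values above was not tested. Of 10 early proximal tubule markers 4 were called higher, and the summed level of the list was 16.59 to 16.67 in congenic and 16.47 to 16.58 in S rats (log2 of the summed intensities). Of 8 late proximal tubule markers 2 were called lower, with sums of 15.83 to 15.86 in congenic and 15.94 to 16.01 in S rats. Of 8 fibroblast and mural cell markers 3 were called higher, with sums of 14.54 to 14.67 in congenic and 14.19 to 14.28 in S rats. Of 7 macrophage markers 4 were called higher, with sums of 13.73 to 13.90 in congenic and 13.45 to 13.61 in S rats. Among all genes by their brightest probe set, 2.12% were called higher and 2.67% lower. In each of these 4 lists, named for their called markers, the sums did not overlap. Single probe sets did not overlap in 31.2% of cases. The sums of 6 thick ascending limb markers also did not overlap, at 15.54 to 15.57 in congenic and 15.64 to 15.67 in S rats. At the brightest probe sets, 1 of the 6 was called lower, and Kcnj1 was at 0.58 without passing (limma, adjusted p = 0.0671). A dimmer Ptger3 probe set rose by 0.54 (adjusted p = 0.0283), against -0.40 at its brightest, which did not pass (adjusted p = 0.0568).

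The widest spread among S rats was at distal tubule and podocyte markers. The sums of 4 distal tubule markers were 14.01 to 14.03 in congenic and 10.63 to 14.08 in S rats, with a median log2 change of 0.53. Those of 5 podocyte markers were 12.07 to 12.18 in congenic and 11.29 to 12.33 in S rats, with a median of 0.94. Both medians leaned on S rat 2. Without it they were 0.09 for the distal tubule and 0.24 for the podocyte markers. With the RNA quality term they were -1.16 for the distal tubule and -0.49 for the podocyte markers. None of these markers was called at its brightest probe set (limma, 1 of each list at an unadjusted p under 0.05), and the sums overlapped. A dimmer Trpv5 probe set rose by 0.71 (adjusted p = 0.0171), against -0.21 at the brightest, and a dimmer Synpo probe set rose by 0.58 (adjusted p = 0.0300). The other dimmer probe sets of these 2 lists did not pass.

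None of 7 endothelial markers was called (limma, 3 at an unadjusted p under 0.05), with sums of 13.03 to 13.10 in congenic and 12.98 to 13.09 in S rats. Endothelium is a known site of Cyp1a1 induction. Of 6 adipocyte markers, a list named after its values were seen, 1 was called lower (limma, 4 at an unadjusted p under 0.05). Their sums of 11.2 to 11.6 in congenic and 11.7 to 12.3 in S rats did not overlap. Their median log2 change was -0.53, and -0.26 with the RNA quality term. No probe set of any list was at 0, since array intensities have no true zero.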

How the data were processed

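Kidney RNA of 3 congenic and 3 S rats was measured on 1 array each. The values are log2 probe set intensities as deposited by the authors, judged from the values to be comparable between arrays (3.76 to 15.1, no missing value); the software that made them is not given in the sources used here. The series' design text names Benjamini-Hochberg adjustment in R 2.8.1.

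Of 31099 probe sets 57 controls were left out. The platform annotation gave 1 symbol to 20826, updated by Entrez identifier to the RefSeq table (GRCr8). Groups and rat numbers came from the titles. limma 3.58.1 in R 4.3.3 (lmFit, eBayes, two-sided, Benjamini-Hochberg over 31042 probe sets, call at adjusted p under 0.05) compared congenic with S over all arrays, with 4 residual and 8.49 total degrees of freedom; the fit was tested on simulated data. Lists are described by counts and median, each gene by its brightest probe set. No correlation over arrays was tested, and exact permutation used scipy 1.17.1. Figures used matplotlib 3.10.9. Each array held RNA of a separate rat, per the series' design text, so p-values measure the spread between these animals.

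Members and lists were chosen with earlier results of these data known. Named are all members, called list genes or else up to 3 with the smallest p, 3 measured neighbours on each side of Cyp1a1, the 5 genes most like it (probe sets above the median level with a range of at least 0.5), and cell type lists with 2 or more called markers. Por, Epas1, Hnf4a, Calb1, Slc12a3, Umod, Aqp2, Slc12a1, Lrp2 and the thick ascending limb, distal tubule, podocyte, endothelial and adipocyte lists were added with their values in view. So were the dimmer probe sets named for Ncoa1, Smarca4, Cul4b, Hsp90ab1, Src, Ptger3, Trpv5 and Synpo. The comparison was also run without each rat, with the RNA quality gap as a covariate, with array weights, with rat number as a block, without moderation, with robust eBayes, with an intensity trend, after median centring, after quantile normalization, without probe sets dimmer than percentile 40, and with the most variable probe set per gene.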

Additional observations from a re-analysis of the deposited data

How the results depend on the processing

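Of 128 values of the other members under the alternatives, 103 kept direction and side of the threshold, 8 lost a call (all at the brighter Ahr probe set), 3 gained one and 14 turned sign. The cause of these moves was not tested. Cyp1a1 stayed below 0 in all 15 alternatives and was called in 8. It was -0.58 with the RNA quality term and -1.02 without moderation or with the replicate block, and between -1.19 and -0.73 without 1 rat. Turned signs, all at values that had not passed, were at the dimmer Ahr probe set (0.26), Ahrr (-0.036), Arnt (-0.037) and Aldh3a1 (-0.17) with the RNA quality term, at Ahrr (-0.066) and Aldh3a1 (-0.12) with array weights, and at Ahrr with median centring (-0.014). Without 1 rat the sign also turned for Cyp1a2 (-0.15 to 0.016), Ahrr (-0.049 to 0.060), Arnt (-0.011 to 0.073) and Aldh3a1 (-0.032 to 0.17).

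With the RNA quality term, and likewise without moderation, limma called 0 probe sets (2292 and 6166 at an unadjusted p under 0.05), so 0 members, 0 target genes and 0 tryptophan enzymes. With array weights it called 6077 probe sets, with 4 members, 7 target genes and 4 chaperones or coregulators. With dim probe sets left out 1 member was called, since the Ahr probe sets were not tested. Without 1 rat the counts ran from 0 to 4752 for all probe sets, 0 to 3 for members, 0 to 5 for target genes, 0 to 2 for chaperones and coregulators and 0 to 6 for tryptophan enzymes. The RNA quality difference ran from -0.78 to -0.51 without 1 rat.

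The labels do not say whether same-numbered rats shared a cage. Such rats deviated from their group means with correlations of -0.01, -0.18 and -0.14, and 0 of 3 correlated best with their own number. These correlations cannot decide it, since a shared cage need not leave a likeness over all probe sets. With the rat number as a replicate block 658 probe sets, 1 member (Cyp1a1, not Ahr) and 2 tryptophan enzymes were called. Calls were lost at Sim2, Afmid, Haao, Alas1, Cyp2j4, Rxra and all macrophage, late proximal tubule and thick ascending limb markers. The fibroblast and mural cell list kept 2 of its 3 calls. The list of other P450 genes had 3 called higher, against 2 without the block. Dim levels limit Ahrr and the second Tiparp probe set, both below percentile 25 of mean intensity.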
